A study of Mus musculus with 48 samples.

Results

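The guanylate-binding proteins (GBPs) were followed in mouse melanomas through 8 genes, Gbp2, Gbp3, Gbp4, Gbp5, Gbp6, Gbp7, Gbp8 and Gbp9. They were chosen by gene symbol and not by a measured value, and they are 8 of the 55450 genes counted in each tumor. GBPs are large GTPases of the interferon response. Interferon gamma signals through the kinases JAK1 and JAK2 to genes with GAS elements in their promoters and induces the transcription factor IRF1, which binds interferon-stimulated response elements (ISRE). GBP genes are classical targets of this pathway. The proteins coat vacuoles and membranes of intracellular pathogens and promote inflammasome activation, and in tumors their transcripts are commonly read as a sign of interferon gamma exposure.

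Every tumor was grown from B16-D5 cells, a subclone of the B16 melanoma line, which were injected under the skin of the flank 8 days before therapy (day -8). The mice were C57BL/6J (WT) or iNOS KO animals, bought at 4 weeks of age and kept for 2 weeks, and they received no treatment, 250 µg control IgG or 250 µg of an antibody against PD-1 on day 0 and again on day 3, so that tumors taken at 6 hours and on day 1 had received 1 dose. Whether the day 3 tumors were taken before or after the second dose is not stated in the sources used here. In the iNOS KO mice the gene Nos2, which encodes the inducible nitric oxide synthase, is lost in all host cells, while the injected tumor cells do not come from these mice. The first experiment, a time course, holds 30 tumors of WT mice: untreated at 0 hours, and each of the 3 treatments at 6 hours, on day 1 and on day 3, with 3 tumors in each of 10 groups. The second experiment holds 18 tumors, 3 in each of 6 groups (WT or iNOS KO, each untreated, with IgG or with anti-PD-1), and its titles give no time, while the study places it at day 7. Per the study's methods each library is a separate tumor, with 3 mice in each group, so that p-values measure the spread between mice. Groups were taken from the sample titles, since 14 of 48 treatment fields match the title and the genotype field names no KO sample where 9 titles do. The titles of the groups given here as 6 hours read D0 without an hour, and the study describes tumors taken 6 hours after treatment.

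Libraries held 25574203 to 47687872 counts in the time course and 11625862 to 40959309 in the second experiment. Levels are given as CPM, counts per 1000000 counts of the library, scaled within each experiment, so that a level of 1 experiment is not set against a level of the other. Markers of melanoma cells, such as Pmel and Tyr, summed to at least 9396 CPM in every tumor. Nos2 was at 1.15 to 5.92 CPM in 9 tumors with the iNOS KO label and at 1.40 to 7.28 CPM in 9 with the WT label, and counts over the whole gene cannot check the genotype label, because the tumor cells carry the gene. In the second experiment 3 libraries, anti-PD-1 WT replicates 3 and 4 and untreated iNOS KO replicate 1, held 973 to 3903 CPM on 1781 olfactory, vomeronasal and taste receptor genes, against 13.6 to 246 CPM in the other 15. Comparisons of groups were therefore also fitted without these 3 libraries, which leaves 1 WT tumor after anti-PD-1, replicate 2. Correlations and marker sums are not given without them. In whole tumors, fewer cells of a type and less RNA per cell cannot be told apart.

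The family lies in 2 clusters of the GRCm38 genome (GENCODE vM21 gene models). Gbp5 (3:142493978-142522344), Gbp7 (3:142530342-142550149), Gbp3 (3:142560026-142573209) and Gbp2 (3:142620602-142638008) lie in this order on the plus strand of chromosome 3, with Gbp2b between Gbp3 and Gbp2. Gbp8 (5:105014150-105139540), Gbp9 (5:105077630-105139539), Gbp4 (5:105115767-105139586) and Gbp6 (5:105270702-105293698) lie on the minus strand of chromosome 5, where the models of Gbp8, Gbp9 and Gbp4 overlap and share 60 or 61 exonic bases. Because the copies are alike, the stretches of 100 bases that a transcript shares with another Gbp gene were counted. Gbp2 and Gbp5 shared none, Gbp3, Gbp4, Gbp7 and Gbp9 shared at most 1.65%, Gbp8 shared 4.39% and Gbp6 shared 37.3%, most of it with Gbp10. The count of Gbp6 is therefore uncertain to the extent that reads were split between it and Gbp10.

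Promoter sequences were at hand for the 4 genes of the chromosome 3 cluster (RefSeq, GRCm38.p6, 250 bases before to 50 bases after the start site, plus strand). No other member had a sequence at hand, and a link between the motifs and the levels of the genes was not tested. Capitals mark matches to the ISRE core (GAAA, any 2 bases and GAAA again, searched on both strands and therefore also as TTTC, any 2 bases and TTTC) or to the GAS element TTCNNNGAA, which reads the same on both strands.
Gbp2 (chr3:142620413-142620712): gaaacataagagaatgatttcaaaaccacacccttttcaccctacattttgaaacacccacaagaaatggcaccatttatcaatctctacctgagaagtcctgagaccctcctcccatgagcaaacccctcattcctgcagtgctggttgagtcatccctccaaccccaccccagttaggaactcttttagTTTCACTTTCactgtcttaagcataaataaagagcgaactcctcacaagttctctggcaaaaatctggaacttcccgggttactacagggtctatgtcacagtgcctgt
Gbp3 (chr3:142559794-142560093): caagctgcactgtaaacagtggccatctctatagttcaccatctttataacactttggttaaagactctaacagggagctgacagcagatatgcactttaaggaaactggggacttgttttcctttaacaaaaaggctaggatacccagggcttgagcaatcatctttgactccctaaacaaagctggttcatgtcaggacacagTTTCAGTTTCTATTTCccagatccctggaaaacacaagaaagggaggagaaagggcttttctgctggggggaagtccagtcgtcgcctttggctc
Gbp5 (chr3:142496684-142496983): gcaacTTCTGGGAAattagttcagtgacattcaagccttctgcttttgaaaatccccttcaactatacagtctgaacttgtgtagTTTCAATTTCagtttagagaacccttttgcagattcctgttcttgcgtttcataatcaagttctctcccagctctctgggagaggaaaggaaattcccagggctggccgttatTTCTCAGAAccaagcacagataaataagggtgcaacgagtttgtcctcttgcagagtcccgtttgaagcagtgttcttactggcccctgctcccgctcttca
Gbp7 (chr3:142530086-142530385): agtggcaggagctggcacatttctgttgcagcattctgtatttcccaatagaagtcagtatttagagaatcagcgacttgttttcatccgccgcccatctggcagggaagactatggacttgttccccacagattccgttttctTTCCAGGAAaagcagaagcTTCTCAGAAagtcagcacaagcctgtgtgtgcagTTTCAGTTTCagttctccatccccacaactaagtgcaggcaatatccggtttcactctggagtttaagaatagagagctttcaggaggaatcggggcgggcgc

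All 4 genes held at least 1 ISRE core in one of their windows, which 3.44% of all 32851 promoters of the table do. The core began at position -59 from the start site in Gbp2, -53 in Gbp7 and -165 in Gbp5, and Gbp3 held 2 overlapping matches at -45 and -39. A second window of Gbp3 (chr3:142560106-142560405) held neither motif. Gbp5 and Gbp7 held 2 GAS matches each, at -245 and -52 and at -106 and -87, while 8.3% of all promoters hold one and 0.454% hold both motifs. The windows of Gbp2 and Gbp3 had no GAS match in these letters. Gbp4, Gbp6, Gbp8 and Gbp9 have no entry in the table.

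All 8 genes were detected in each of the 48 tumors, with at least 34 counts in the time course and, apart from Gbp8 with as few as 7, at least 51 in the second experiment. Per kb of exon the median level over the 30 tumors of the time course was highest for Gbp2 with 13.4 and Gbp7 with 13.4 CPM per kb, followed by Gbp3 with 11.7 CPM per kb. Gbp9 had a median of 5.0 CPM per kb, and Gbp4, Gbp8, Gbp5 and Gbp6 had 1.96, 1.61, 1.46 and 1.11 CPM per kb. In the second experiment Gbp7 with 6.08 and Gbp3 with 5.98 CPM per kb came before Gbp2 with 4.08 CPM per kb. Gbp2, a prenylated member best known for its recruitment to vacuoles of Toxoplasma and Salmonella, varied most widely as a share of the summed per-kb level of the 8 genes, from 9.04% to 50.7% over the time course. The share of Gbp7, known for a role in assembling the phagocyte oxidase, stayed between 15.4% and 37.7%.

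Single tumors of the time course differed more than groups did. Gbp2 ranged from 7.28 to 709 CPM over the 30 tumors (97.4-fold, median 33.7 CPM) and Gbp4, described as a restraint on IRF7, from 2.90 to 372 CPM (128-fold). Gbp5, which promotes inflammasome assembly, ranged 94.6-fold, Gbp6 72.5-fold, Gbp8 65.3-fold, Gbp7 17-fold, Gbp3 12.7-fold and Gbp9 12.6-fold. The IgG tumor of day 1 labelled replicate 4 was the highest of the 30 for 8 of 8 members. It also had the highest summed level of T cell and NK cell markers, 114 CPM over 9 genes, where the other 29 tumors had 9.26 to 88.9 CPM. Next to it stood anti-PD-1 replicate 5 of 6 hours, among the 5 highest tumors for 8 members, and replicate 3 of anti-PD-1 and of IgG at day 3, among the 5 highest for 7 members each. The part of infiltrating cells in these levels was not tested. Untreated replicates 2 and 4 of 6 hours were among the 5 lowest tumors for all 8 members.

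**Figure D1:**
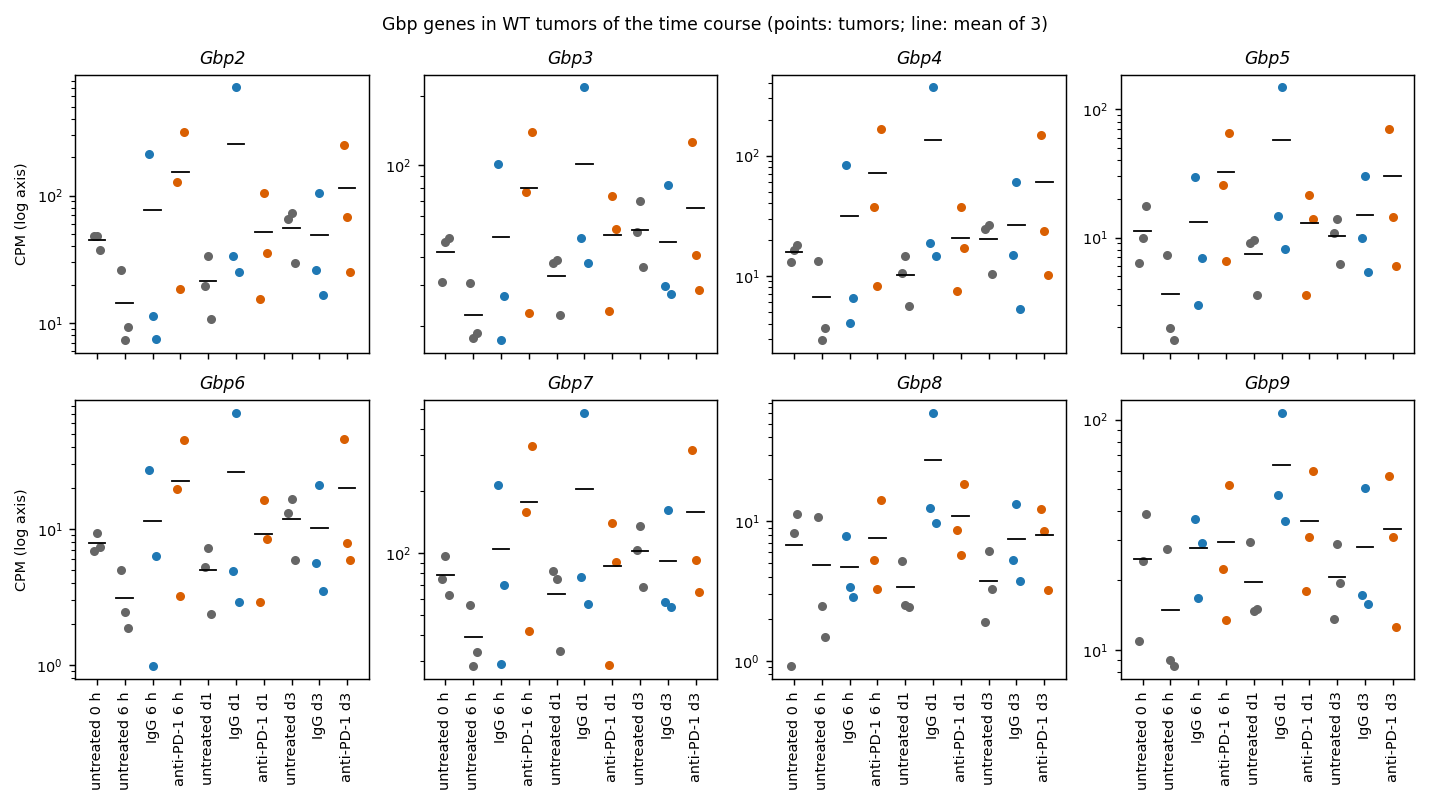
Level of each of the 8 Gbp genes (CPM, log axis) in the 30 WT tumors of the time course by treatment and time, with gray points for untreated, blue for IgG and orange for anti-PD-1 tumors and a line at the mean of 3. One IgG tumor of day 1 is the highest point for every gene, 709 CPM for Gbp2.

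In the time course the 8 genes fell into a tight group of 6 and a looser pair. Among Gbp2, Gbp3, Gbp4, Gbp5, Gbp6 and Gbp7, Pearson's r of log2(CPM + 0.5) across the 30 tumors was 0.94 to 0.98 for the 15 pairs. Gbp8 and Gbp9, the less studied neighbors of Gbp4 on chromosome 5, had an r of 0.91 with each other and 0.57 to 0.84 with the other 6. In the 18 tumors of the second experiment r was 0.78 to 0.96 within the 6, 0.77 between Gbp8 and Gbp9, and 0.46 to 0.78 between the pair and the 6. With each value taken as the deviation from its group mean, r within the 6 was 0.93 to 0.98 in the time course and 0.62 to 0.97 in the second experiment. Between the pair and the 6 it was then 0.62 to 0.85 and 0.43 to 0.87. The ranges thus overlapped in the second experiment, where the pair did not stand clearly apart. The grouping of the time course did not follow the chromosomes, since Gbp4 and Gbp6 of chromosome 5 were in the tight group. These values describe genes measured in the same libraries, and the most extreme tumors weigh heavily in them.

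**Figure D2:**
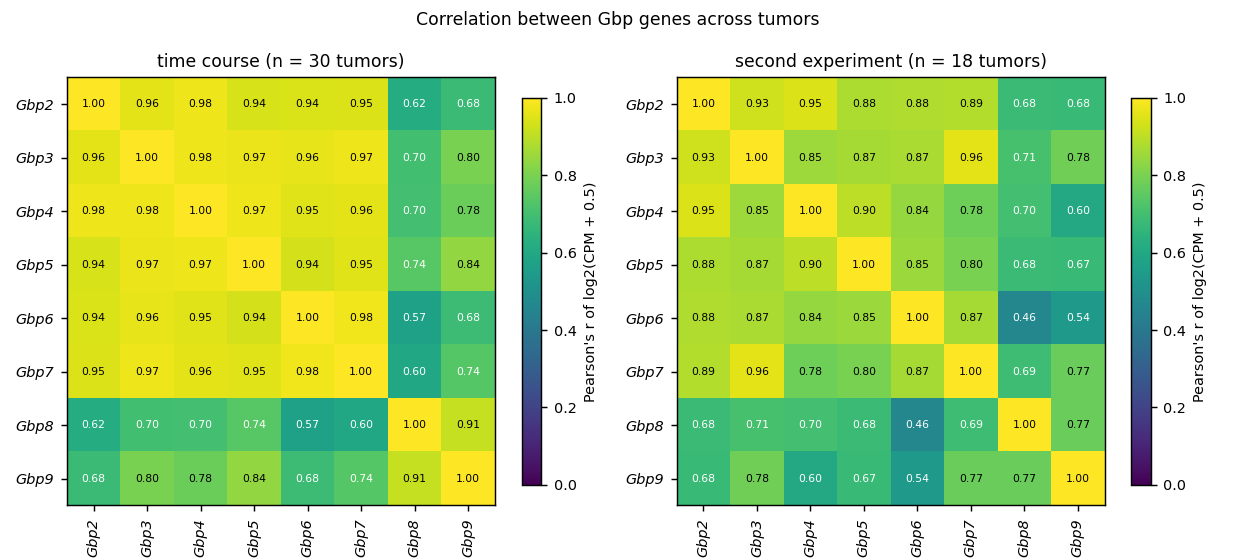
Pearson's r of log2(CPM + 0.5) for each pair of the 8 Gbp genes across 30 tumors of the time course (left) and 18 tumors of the second experiment (right), with color from 0 to 1. In the time course the block of Gbp2 to Gbp7 is brighter than its pairs with Gbp8 and Gbp9, 0.94 to 0.98 against 0.57 to 0.84. In the second experiment the ranges meet, 0.78 to 0.96 against 0.46 to 0.78.

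At 6 hours the levels of the 8 genes after anti-PD-1 and after IgG overlapped for every member. After anti-PD-1 the tumors had 129, 18.6 and 316 CPM of Gbp2, which was at 210, 11.4 and 7.55 CPM in the IgG tumors, and at 26.2, 7.28 and 9.33 CPM in the untreated tumors. Gbp4 was at 37.7, 8.22 and 168 CPM after anti-PD-1, at 83.4, 4.06 and 6.56 CPM after IgG and at 13.3, 2.90 and 3.68 CPM without treatment. Gbp9 was at 22.4, 13.5 and 52.1 CPM after anti-PD-1 and at 37, 16.7 and 29.2 CPM after IgG. In both treated groups 1 or 2 tumors were high and at least 1 was low. The log2 fold change of anti-PD-1 against IgG was 1.01 (SE 1.17) for Gbp2, 0.72 (SE 0.69) for Gbp3, 1.19 (SE 1.19) for Gbp4 and 1.29 (SE 1.02) for Gbp5. It was 0.99 (SE 1.06) for Gbp6, 0.76 (SE 0.78) for Gbp7, 0.69 (SE 0.83) for Gbp8 and 0.08 (SE 0.62) for Gbp9. By edgeR's quasi-likelihood test 0 of 8 members passed an adjusted p of 0.05, where 0% of 26848 genes passed in either direction, and each member's adjusted p was 1. At an unadjusted p under 0.05 there were 0 members, and DESeq2 called 0 at an adjusted p of 0.05. The median log2 fold change of the members was 0.87, beside -0.07 for all genes tested. Without anti-PD-1 replicate 5 the sign turned for 5 members (Gbp2 -0.03, Gbp4 -0.42, Gbp7 -0.02, Gbp8 -0.09, Gbp9 -0.57), and without IgG replicate 1 the members' median was 2.34.

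Against untreated tumors of 6 hours, the log2 fold change after anti-PD-1 was 3.44 (SE 1.27) for Gbp2, 1.84 (SE 0.71) for Gbp3, 3.43 (SE 1.3) for Gbp4 and 3.17 (SE 1.10) for Gbp5. It was 2.87 (SE 1.14) for Gbp6, 2.18 (SE 0.82) for Gbp7, 0.64 (SE 0.83) for Gbp8 and 0.97 (SE 0.63) for Gbp9. None of the 8 passed the adjusted threshold (adjusted p 1 for each, edgeR), where 0% of all genes passed, and DESeq2 called 0. An unadjusted p under 0.05 was reached by 6 members, the tight group from Gbp2 to Gbp7, where 2.13% of all genes reached it in this direction. The 3 anti-PD-1 tumors were not all above the 3 untreated ones for any member. IgG against untreated at 6 hours ran from -0.05 (SE 0.83) for Gbp8 to 2.42 (SE 1.22) for Gbp2 on the log2 scale, with a median of 1.64, 0 members called by edgeR (0% of all genes higher), 0 by DESeq2 and 0 at an unadjusted p under 0.05. These 2 comparisons share their untreated tumors. Without IgG replicate 1 the median of the latter was 0.01.

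At day 1 the direction between the treatments was the opposite. Gbp2 was at 15.4, 104 and 35.2 CPM after anti-PD-1 and at 33.7, 709 and 25.2 CPM after IgG, and Gbp8 was at 8.67, 5.77 and 18.4 CPM against 12.4, 59.9 and 9.79 CPM. A single IgG tumor stood above all others while the remaining tumors of both groups overlapped. The log2 fold change of anti-PD-1 against IgG ran from -2.71 (SE 1.25) for Gbp4 to -0.81 (SE 0.62) for Gbp9, with a median of -1.42 beside -0.01 for all genes. edgeR and DESeq2 called 0 members (0% of all genes by edgeR), and 1 member, Gbp4, had an unadjusted p under 0.05, where 2.53% of all genes did in this direction. Without IgG replicate 4 the median was 0.21. IgG against untreated at day 1 ran from 1.63 (SE 0.71) for Gbp3 to 3.72 (SE 1.31) for Gbp4 with a median of 2.68. All 8 members then had an unadjusted p under 0.05, against 4.01% of all genes in this direction, while edgeR and DESeq2 called 0 of 8 (0% of all genes by edgeR, adjusted p 0.859). For 3 members, Gbp4, Gbp8 and Gbp9, every IgG tumor was above every untreated tumor, as for 6.26% of all genes. Without IgG replicate 4 the median was 0.60. Every IgG tumor of day 1 was also above every untreated one in the summed markers of T cells and NK cells (26.8 to 114 against 10.6 to 23.8 CPM), of leukocytes (498 to 683 against 180 to 380 CPM) and of neutrophils (10.8 to 16.8 against 5.06 to 7.82 CPM). Their part in the result was not tested.

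At day 3 anti-PD-1 tumors were again on the higher side of IgG tumors in fold change but not in every tumor. Gbp2 was at 250.2, 67.4 and 25.3 CPM after anti-PD-1 and at 25.9, 104 and 16.6 CPM after IgG. The log2 fold change ran from 0.11 (SE 0.82) for Gbp8 to 1.23 (SE 1.17) for Gbp2, with a median of 0.88 beside 0.00 for all genes, and edgeR (0% of all genes), DESeq2 and an unadjusted p under 0.05 each gave 0 members. Without anti-PD-1 replicate 3 the median was -0.44. IgG against untreated at day 3 had a median of 0.11, which was -0.89 without IgG replicate 3 and -0.10 without untreated replicate 4, and untreated tumors of day 3 against those of 0 hours had a median of 0.33, again with 0 members called by either program or at an unadjusted p under 0.05 (0% of all genes called by edgeR in both). Averaged over 6 hours, day 1 and day 3, anti-PD-1 against IgG ran from -0.17 (SE 0.47) for Gbp8 to 0.15 (SE 0.61) for Gbp6, with 0 members called by edgeR (0% of all genes), by DESeq2 and at an unadjusted p under 0.05. Whether the difference between the treatments changed over the 3 times was tested directly and 0 members passed by edgeR (0% of all genes), by DESeq2 and at an unadjusted p under 0.05, with the lowest p, 0.0506, for Gbp5. The test for any difference among the 10 conditions called 0 members by edgeR, where 0% of all genes passed, with an unadjusted p under 0.05 for Gbp4, Gbp5 and Gbp8 (5.7% of all genes), and 1 member, Gbp8, by DESeq2 (adjusted p 0.0409), which called 3.17% of all genes.

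In the order of group means, IgG at day 1 was first for all 8 members. Anti-PD-1 at 6 hours and at day 3 came next for the 6 genes of the tight group, and untreated at 6 hours was last for 7 members. Of the 72 pairs of neighbors in these orders, 71 overlapped in their tumors. The exception was Gbp2 between untreated tumors of 0 hours (37.5 to 48.4 CPM) and of day 1 (10.7 to 33.7 CPM). Neighbors are by construction the groups closest in mean in these same tumors, so the count cannot show whether groups differ. The share over all genes is not given here.

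In the second experiment the group means of Gbp2, Gbp3, Gbp4, Gbp5, Gbp6 and Gbp7 were all highest in untreated tumors labelled iNOS KO, and those of Gbp8 and Gbp9 in WT tumors treated with IgG. The lowest means were in iNOS KO tumors after anti-PD-1 (Gbp3, Gbp6, Gbp7, Gbp8 and Gbp9) or in untreated WT tumors (Gbp2, Gbp4 and Gbp5). Of the 40 pairs of neighboring groups, 39 overlapped, and the exception was Gbp7 between untreated WT (33.3 to 43.8 CPM) and anti-PD-1 iNOS KO tumors (23.7 to 28.9 CPM). Here, too, neighbors were set by the means of the same tumors, so the count cannot show whether groups differ. Untreated iNOS KO replicate 4 was the highest of the 18 tumors for 6 members, and IgG WT replicate 3 for Gbp8 and Gbp9. Any difference among the 6 conditions was called by edgeR for 3 members, Gbp2 (adjusted p 0.0238), Gbp4 (adjusted p 0.0271) and Gbp6 (adjusted p 0.0225), where 1.66% of 30837 genes were called. DESeq2 called 6 members, where it called 12.7% of all genes.

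**Figure D3:**
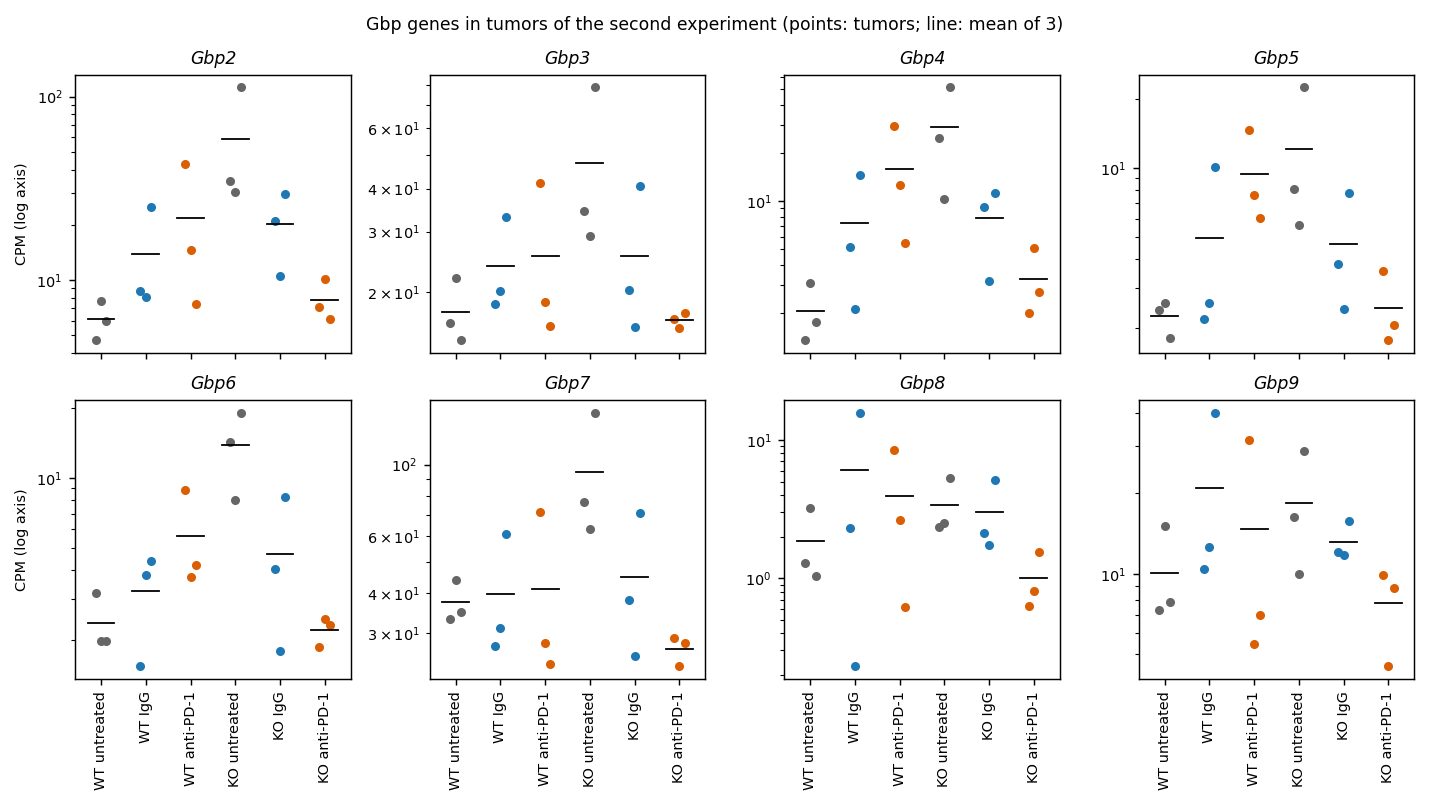
Level of each of the 8 Gbp genes (CPM, log axis) in the 18 tumors of the second experiment by genotype label and treatment, with gray points for untreated, blue for IgG and orange for anti-PD-1 tumors and a line at the mean of 3. Untreated iNOS KO tumors are above untreated WT tumors for Gbp2 (30.2 to 112 against 4.69 to 7.69 CPM), and the 3 iNOS KO tumors after anti-PD-1 lie close together.

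In untreated tumors labelled iNOS KO, 3 of the 8 members, Gbp2, Gbp4 and Gbp6, were higher than in untreated WT tumors. Gbp2 was at 34.5, 30.2 and 112 CPM in iNOS KO and at 4.69, 7.69 and 5.96 CPM in WT tumors, 59.0 ± 46.3 against 6.11 ± 1.51 CPM (mean ± SD, n = 3 each). Gbp4 was at 24.8, 10.3 and 51.5 CPM against 1.34, 3.08 and 1.76 CPM, and Gbp6 at 14.3, 8.06 and 19.1 CPM against 3.19, 1.97 and 1.97 CPM. All iNOS KO tumors were above all WT tumors for these 3 genes. The log2 fold change was 3.27 (SE 0.61, adjusted p 0.0172) for Gbp2, 3.81 (SE 0.74, adjusted p 0.0218) for Gbp4 and 2.54 (SE 0.51, adjusted p 0.0257) for Gbp6 by edgeR, corresponding to 9.67-fold, 14-fold and 5.81-fold. Called higher were thus 3 of 8 members, where 0.584% of all genes were.

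The other 5 members of this contrast did not pass the edgeR threshold. Gbp5 was at 8.09, 5.62 and 22.4 CPM in iNOS KO and at 2.40, 2.59 and 1.82 CPM in WT tumors (log2 fold change 2.41, SE 0.60, adjusted p 0.0824). Gbp3 was at 34.3, 29.1 and 78.7 against 16.3, 22 and 14.5 CPM (1.43, SE 0.40, adjusted p 0.132), and Gbp7 at 76.5, 63.0 and 145 against 33.3, 43.8 and 35 CPM (1.34, SE 0.41, adjusted p 0.184). For these 3 genes, too, no iNOS KO tumor was as low as a WT tumor, so that 6 of 8 members did not overlap, as did not 9.73% of all genes in this direction. Gbp8 (2.33, 2.51 and 5.30 against 1.29, 3.22 and 1.04 CPM) and Gbp9 (16.3, 9.99 and 28.9 against 7.32, 15.1 and 7.84 CPM) overlapped. The same 6 members had an unadjusted p under 0.05, as did 13.1% of all genes higher, and were called by DESeq2, which called 2.83% of all genes higher. The median of all genes in this contrast was 0.49, and each member lay 0.38 to 3.32 above that median on the log2 scale. The summed T cell and NK cell markers were 7.52 to 20.5 CPM in untreated iNOS KO and 3.00 to 7.64 CPM in untreated WT tumors, with 0 of the 9 markers called. Markers of stromal cells differed as well. Those of fibroblasts summed to 636 to 863 CPM in iNOS KO and 875 to 3967 CPM in WT tumors, with 0 of 5 called and 4 lower at an unadjusted p under 0.05. Endothelial markers were at 162 to 196 against 205 to 241 CPM, and adipocyte markers at 30.3 to 57.3 against 13.4 to 26.2 CPM, with 3 of 4 higher at an unadjusted p under 0.05. For these 3 cell types no iNOS KO tumor overlapped a WT tumor, and the part of the markers in the result was not tested. Untreated iNOS KO replicate 1 is rich in receptor counts, and no marker sum was corrected for this.

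The calls for Gbp4 and Gbp6 changed with single libraries. Without untreated iNOS KO replicate 4, the highest tumor, all 3 remained past the threshold, and the median of the members was 1.23 in place of 1.92. Gbp4 was not called without untreated WT replicate 1 (adjusted p 0.0578), and Gbp6 was not called without untreated WT replicate 2 or 3 (adjusted p 0.0724 and 0.0797) or with the receptor rate as a covariate (adjusted p 0.0860). Without the 3 libraries rich in receptor counts the log2 fold changes were 3.54, 3.91 and 2.51 (adjusted p 0.00859, 0.0230 and 0.0441). Gbp2 passed under each alternative, with an adjusted p of at most 0.0433.

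After anti-PD-1, the fold changes of tumors labelled iNOS KO against WT were below 0 for all 8 members. Gbp2 was at 7.10, 10.1 and 6.14 CPM in iNOS KO and at 43.1, 14.5 and 7.41 CPM in WT tumors, and these overlapped. Gbp4 was at 1.98, 5.10 and 2.7 CPM against 29.6, 12.5 and 5.50 CPM, Gbp5 at 3.55, 1.77 and 2.07 CPM against 14.6, 7.61 and 6.07 CPM, and for these 2 genes and Gbp6 each iNOS KO tumor was below each WT tumor, as for 17% of all genes. The log2 fold change was -1.49 (SE 0.58) for Gbp2, -0.62 (SE 0.39) for Gbp3, -2.29 (SE 0.69) for Gbp4 and -1.94 (SE 0.59) for Gbp5. It was -1.35 (SE 0.50) for Gbp6, -0.62 (SE 0.41) for Gbp7, -1.98 (SE 0.99) for Gbp8 and -0.94 (SE 0.57) for Gbp9. edgeR called 0 of 8 members (0% of all genes, adjusted p 0.123 to 0.263), 4 had an unadjusted p under 0.05, where 26.6% of all genes did in this direction, and DESeq2 called 2, Gbp4 and Gbp5, where it called 8.51% of all genes lower. The median of all genes was -0.91 and that of the members -1.42, so that Gbp3 and Gbp7 lay 0.29 above the median of all genes. T cell and NK cell markers summed to 2.40 to 5.44 CPM in the iNOS KO and 17.4 to 33.4 CPM in the WT tumors of this contrast, 0 of the 9 called and 6 with an unadjusted p under 0.05, and their part in the result was not tested. WT replicates 3 and 4 are rich in receptor counts (3903 and 1374 CPM), and the marker sums were not corrected for this. Without WT replicate 2, Gbp7 and Gbp9 turned to 0.10 and 0.36 and the median of the members was -0.52. Without WT replicates 3 and 4, rich in receptor counts, and untreated iNOS KO replicate 1, the median was -2.21. That value rests on 1 WT tumor, replicate 2, which had the highest Gbp2 of its group.

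With IgG no difference between the genotypes passed the test for a member. Gbp2 was at 20.9, 10.5 and 29.6 CPM in iNOS KO and at 8.72, 8.12 and 25 CPM in WT tumors, and the log2 fold changes ran from -1.02 (SE 0.95) for Gbp8 to 0.55 (SE 0.57) for Gbp2 with a median of 0.11. edgeR called 0 members (0% of all genes), DESeq2 0, and 0 had an unadjusted p under 0.05. Averaged over the 3 treatments, iNOS KO against WT ran from -0.71 (SE 0.55) for Gbp8 to 0.78 (SE 0.33) for Gbp2, with 0 members called by edgeR (0.00973% of all genes higher), 0 by DESeq2 and 1, Gbp2, with an unadjusted p under 0.05 (5.07% of all genes higher).

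**Figure D4:**
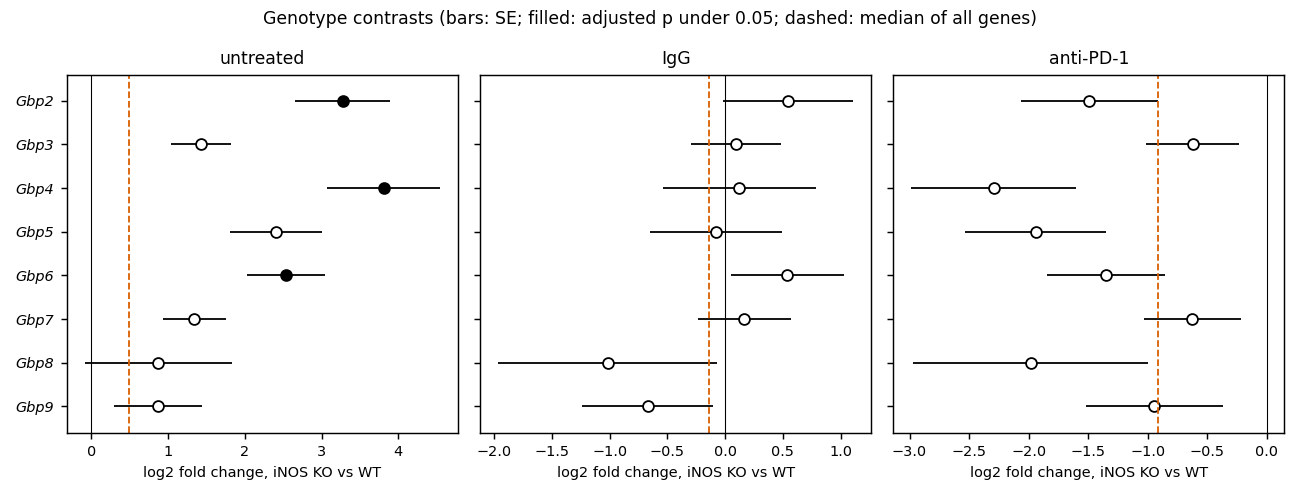
Log2 fold change of iNOS KO against WT tumors for the 8 Gbp genes in untreated, IgG and anti-PD-1 tumors, with bars for the SE, filled points for an adjusted p under 0.05 (edgeR) and a dashed line at the median of all genes. The members' median is 1.92 without treatment, 0.11 with IgG and -1.42 with anti-PD-1, and the 3 filled points are Gbp2, Gbp4 and Gbp6 in untreated tumors.

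Within one genotype, anti-PD-1 against IgG ran from -0.62 (SE 0.95) for Gbp8 to 1.14 (SE 0.67) for Gbp4 in WT tumors, where the median of the members, 0.37, was below that of all genes, 0.68. edgeR called 0 members (0% of all genes), 0 had an unadjusted p under 0.05, and DESeq2 gave no adjusted p for the members. In iNOS KO tumors it ran from -1.58 (SE 0.98) for Gbp8 to -0.62 (SE 0.39) for Gbp3, with 0 members called by edgeR (0% of all genes) and by DESeq2 and 2, Gbp2 and Gbp6, with an unadjusted p under 0.05 (1.09% of all genes lower). The 3 anti-PD-1 tumors were below the 3 IgG tumors for Gbp2, Gbp8 and Gbp9, as for 3.77% of all genes. They were also below them in T cell and NK cell markers (2.40 to 5.44 against 5.91 to 14.3 CPM), whose part was not tested. The difference between these contrasts, iNOS KO minus WT, ran from -2.42 (SE 0.95) for Gbp4 to -0.27 (SE 0.80) for Gbp9, with 0 members called by edgeR (0% of all genes) and by DESeq2, and 4 with an unadjusted p under 0.05, against 6.44% of all genes. IgG against untreated ran from 0.09 (SE 0.40) for Gbp7 to 1.81 (SE 0.70) for Gbp4 in WT tumors and from -1.87 (SE 0.67) for Gbp4 to -0.17 (SE 0.95) for Gbp8 in iNOS KO tumors. Both gave 0 calls by edgeR (0% of all genes higher in WT, 0.188% lower in iNOS KO tumors) and DESeq2, with 1 and 6 members at an unadjusted p under 0.05, where by that measure 5.54% of all genes were higher in WT and 12.7% lower in iNOS KO tumors. T cell and NK cell markers were at 12.3 to 23.2 CPM with IgG and 3.00 to 7.64 CPM without treatment in WT tumors, and fibroblast markers at 2217 to 3696 CPM against 636 to 863 CPM in iNOS KO tumors, and their part was not tested.

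Anti-PD-1 was also compared with no treatment within each genotype, a comparison added after the levels were seen. In WT tumors the log2 fold changes ran from 0.15 (SE 0.40) for Gbp7 to 2.95 (SE 0.72) for Gbp4 (all genes 0.96), with 0 members called by edgeR, 4 with an unadjusted p under 0.05 (24.8% of all genes higher) and 3 called by DESeq2 (Gbp2, Gbp4 and Gbp5, beside 7.35% of all genes). In iNOS KO tumors they ran from -3.15 (SE 0.71) for Gbp4 to -1.25 (SE 0.58) for Gbp9 (all genes -0.44), with 0 members called by edgeR, 7 with an unadjusted p under 0.05 (14.4% of all genes lower) and 6 called by DESeq2 (2.18%). Of all genes 0% were called higher by edgeR in WT tumors and 0.0422% lower in iNOS KO tumors. All 8 members were lower in each anti-PD-1 tumor than in each untreated tumor of iNOS KO mice, as were 8.46% of all genes. T cell and NK cell markers were at 17.4 to 33.4 CPM after anti-PD-1 and 3.00 to 7.64 CPM without treatment in WT tumors, and at 2.40 to 5.44 against 7.52 to 20.5 CPM in iNOS KO tumors. These sums include the libraries rich in receptor counts and were not corrected for them. The difference between both effects, iNOS KO minus WT, was called for 6 members, Gbp2 (-4.76, SE 0.84, adjusted p 0.0147), Gbp3 (-2.05, SE 0.56, adjusted p 0.0325), Gbp4 (-6.10, SE 1.01, adjusted p 0.0137), Gbp5 (-4.35, SE 0.84, adjusted p 0.0202), Gbp6 (-3.89, SE 0.71, adjusted p 0.0176) and Gbp7 (-1.97, SE 0.57, adjusted p 0.0382). In this direction 19.6% of all genes were called and the median of all genes was -1.36. All 3 libraries rich in receptor counts enter this difference. Without them the WT anti-PD-1 group is 1 tumor, replicate 2, which had the highest Gbp2 of that group. Only effect sizes are therefore given for that fit, -5.98 for Gbp2 and -7.06 for Gbp4. With the receptor rate as a covariate edgeR called 0 members. Gbp2 was then at -5.95 (adjusted p 0.0886), Gbp4 at -6.74 (adjusted p 0.161) and Gbp5 at -4.85 (adjusted p 0.472). Leaving out 1 tumor at a time, 4 to 7 members were called and Gbp2, Gbp4, Gbp5 and Gbp6 passed in 12 of 12 cases. The share of all genes called in these fits is not given here. Gbp3 was not called without anti-PD-1 iNOS KO replicate 1, untreated WT replicate 1 or 3, or anti-PD-1 WT replicate 3 (4 of 12 cases, adjusted p up to 0.0587). Gbp7 was not called in 6 of 12 cases, without any of these 4 tumors or without anti-PD-1 iNOS KO replicate 2 or 3 (adjusted p up to 0.0640). Markers of several unlike cell types moved in the same direction. Called lower were 6 of 9 T cell and NK cell, 3 of 5 dendritic cell, 3 of 4 B cell and 0 of 8 macrophage markers. The neutrophil markers Cxcr2 and S100a8, the keratinocyte markers Lor and Trp63 and the adipocyte markers Fabp4 and Plin1 were also called lower. The part of these markers in the result was not tested.

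The rest of the family was scarce. Gbp2b, the mouse gene long called Gbp1, had a median of 2.23 CPM in the time course, Gbp10 1.09 CPM and Gbp11 0.34 CPM, and each was highest in IgG day 1 replicate 4 (80.6, 89.0 and 20.4 CPM). In untreated tumors Gbp10 was at 2.04, 0.47 and 9.21 CPM in iNOS KO and at 0, 0.14 and 0 CPM in WT tumors (adjusted p 0.164), and it shares 60.1% of its 100-base stretches with Gbp6.

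Other genes of the same response were read from lists. Of 10 other interferon-inducible GTPases, such as the IRG proteins that act with GBPs on vacuoles, 5 were called higher in untreated iNOS KO than WT tumors by edgeR (log2 fold change 5.07 for Tgtp1, 3.16 for Tgtp2, 3.07 for Iigp1, 2.53 for Ifi47 and 2.51 for Igtp), with a list median of 1.8. Of 10 genes of interferon gamma signaling 1 was called, Irf1 (1.48, SE 0.33, adjusted p 0.0410), and the list median was 0.29. Of 8 genes that load GBPs onto membranes through the autophagy machinery 1 was called, Gabarapl2 (1.01, SE 0.21, adjusted p 0.0298). Of all genes 0.584% were called higher in this contrast, and their median log2 fold change was 0.49. None of 7 tested genes of type I interferon signaling and none of 8 inflammasome genes linked to GBPs were called in this contrast by edgeR, with 0 and 2 at an unadjusted p under 0.05. By that measure 13.1% of all genes were higher and 3.37% lower. In the time course these lists gave 0 calls in anti-PD-1 against untreated at 6 hours (0% of all genes), with 7 of 10 GTPases and 5 of 10 interferon gamma signaling genes higher at an unadjusted p under 0.05 (2.13% of all genes).

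The genes whose level followed the mean of the 8 members most closely over the 30 tumors, among 25456 genes, were Zbp1 (r = 0.97), Parp14 (0.97), Nlrc5 (0.97), Gm12250 (0.97) and Tap1 (0.96). Their r over the 18 tumors of the second experiment was 0.85, 0.77, 0.85, 0.92 and 0.89. Nlrc5 activates MHC class I genes, and Tap1 is part of the peptide transporter. The median over all genes was -0.02 and 0.06.

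Gbp2 was set against genes chosen for their roles. Across the 30 tumors of the time course it followed Irf1 (r = 0.97, Spearman's rho 0.97, adjusted p 2e-05 for r) and Ifng, the gene of interferon gamma itself (r = 0.88, rho 0.81, adjusted p 2e-05), by two-sided permutation tests whose smallest possible p is 1e-05. Cd3e, a T cell receptor subunit, had an r of 0.70 (rho 0.72, adjusted p 6e-05 by the permutation test). The leukocyte marker Ptprc (r = 0.36, adjusted p 0.063) and the macrophage marker Adgre1 (r = 0.16, adjusted p 0.401) did not pass by the permutation test. As deviations from group means r was 0.98 for Irf1, 0.86 for Ifng and 0.73 for Cd3e. Without the 2 tumors farthest from the median of Gbp2 it was 0.96, 0.81 and 0.65.

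In the 18 tumors of the second experiment Irf1 (r = 0.93, rho 0.80, adjusted p 6e-05, permutation test) passed, while Ifng (r = 0.36, rho 0.35, adjusted p 0.239), Ptprc (r = 0.32, rho 0.33, adjusted p 0.239), Cd3e (r = 0.33, rho 0.44, adjusted p 0.239) and Adgre1 (r = 0.19, rho 0.12, adjusted p 0.441) did not by the permutation test. Ifng was at 0 to 0.67 CPM in these 18 tumors. In the libraries rich in receptor counts it was at 0.67 and 0.39 CPM (anti-PD-1 WT replicates 4 and 3) and 0.41 CPM (untreated iNOS KO replicate 1). IgG WT replicate 3 had 0.52 CPM. The correlations were not computed without these libraries. As deviations from group means r was 0.90 for Irf1 (adjusted p 0.0027, permutation test), 0.65 for Ptprc (adjusted p 0.0652), 0.49 for Adgre1 (adjusted p 0.153), 0.0034 for Ifng (adjusted p 0.999) and 0.00038 for Cd3e (adjusted p 0.999). Without the 2 tumors farthest from the median of Gbp2 it was 0.87 for Irf1.

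**Figure D5:**
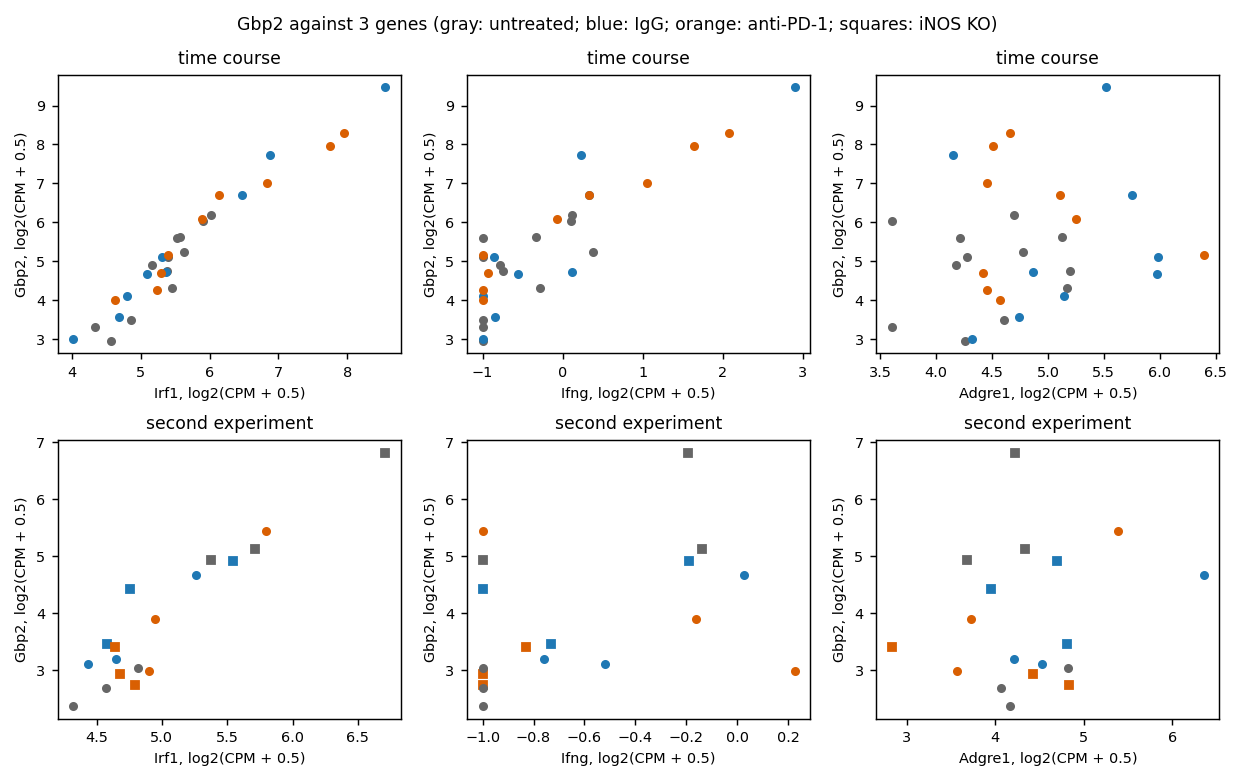
Gbp2 against Irf1, Ifng and Adgre1, all as log2(CPM + 0.5), with 1 point per tumor of the time course (top) and the second experiment (bottom), circles for WT and squares for iNOS KO, and gray, blue and orange for untreated, IgG and anti-PD-1. Points line up for Irf1 in both rows (r = 0.97 and 0.93) and not for Adgre1 (r = 0.16 and 0.19).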

How the data were processed

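RNA of 48 tumors was sequenced as strand-specific libraries. Per the submitters' processing notes and the study's methods, the authors trimmed reads with cutadapt 1.8.1, aligned them to mm10 with STAR 2.7.7a and estimated counts per gene of GENCODE vM21 with RSEM 1.3.0. The deposited table names another counting program, and the values do not show which was used. The deposited values are whole-number counts without normalization, and all 48 columns were used.

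Each experiment was fitted apart with edgeR 4.0.16 (R 4.3.3), TMM scaling, 1 coefficient per group and the quasi-likelihood F-test. A minimum count of 10 in filterByExpr left 26848 and 30837 genes (20 and 12 residual degrees of freedom), all 8 members among them. P-values were adjusted by Benjamini-Hochberg over all genes tested, with a threshold of 0.05. CPM uses the TMM-adjusted library size, and correlations used log2 of CPM plus 0.5 with 100000 permutations, adjusted over 6 genes, 1 of which is not reported here. Depth set a floor of 3 counts, 0.0688 to 0.197 CPM, and covers counting error only. The code was tested on simulated data.

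Replicate numbers did not pair the tumors. The median correlation of same-numbered deviations was -0.03 over 65 pairs of the time course and -0.02 over 36 pairs of the second experiment. Within groups no library was a copy of another (48 pairs), and pairs from different groups were not checked for copies. Alternatives were DESeq2 1.42.0, its size factors, no filter, a replicate block, the receptor rate per kb of exon as a covariate, only the groups compared, and each tumor left out. The comparisons of anti-PD-1 with untreated tumors in the second experiment and the fit without 3 libraries were added after seeing the data. Members and lists were chosen with earlier results of these data known. Named are all 8 members, Gbp2b, Gbp10, Gbp11, Ifng and Irf1, called genes of the lists, and the 5 genes most like the members' mean. Lists of markers of 12 cell types gave no call in the planned comparisons. Proteins were not analysed here. Correlations used scipy 1.17.1 and plots used matplotlib 3.10.9, under Python 3.11.15.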

Additional observations from a re-analysis of the deposited data

Results flagged for a closer look

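In 6 members the effect of anti-PD-1 against no treatment differed between tumors labelled iNOS KO and WT by a direct test of the difference (edgeR, on the log2 scale, iNOS KO minus WT): Gbp2 -4.76, Gbp3 -2.05, Gbp4 -6.10, Gbp5 -4.35, Gbp6 -3.89 and Gbp7 -1.97. In this comparison, added after the levels were seen, 19.6% of all genes were called in the same direction. The 3 libraries with the most counts on receptor genes belong to the groups compared. Without them the WT anti-PD-1 group is 1 tumor, with -5.98 for Gbp2 and -7.06 for Gbp4. With the receptor rate as a covariate 0 members were called.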

How the results depend on the processing

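Of 711 values for whole comparisons under alternatives, 644 stayed within set limits. For medians of the members the limit was the pooled SD of their mean log2 level within groups, 1.17 in the time course and 0.71 in the second experiment. Such a median could change sign and still count as unchanged, as for anti-PD-1 against IgG at 6 hours (0.87 to -0.024). A count of 0 calls that stayed at 0 was also unchanged. Of 521 values for single genes 467 kept their direction and call, with 10 reversed, 12 newly past the threshold and 32 no longer past it. Log2 fold changes of the members had the same sign with TMM and with DESeq2's size factors in 168 of 168 cases. The replicate numbers were not treated as pairs in the main fits. A replicate block turned Gbp9 in anti-PD-1 against IgG at 6 hours to -0.46 and left 0 members called for any difference among the 6 conditions of the second experiment.

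Leaving out 1 tumor at a time, anti-PD-1 against IgG at 6 hours ran from -0.029 to 4.09 for Gbp2, -0.42 to 3.84 for Gbp4, -0.019 to 1.93 for Gbp7, -0.091 to 1.35 for Gbp8 and -0.57 to 0.47 for Gbp9, and anti-PD-1 against untreated at 6 hours from -0.22 to 1.99 for Gbp8. In iNOS KO against WT after anti-PD-1, Gbp7 ran from -0.92 to 0.10 and Gbp9 from -1.34 to 0.36. The median of the members ran from -0.024 to 2.34 (anti-PD-1 against IgG at 6 hours), -1.98 to 0.21 (day 1) and -0.44 to 1.76 (day 3), and for IgG against untreated from 0.0099 to 2.08 (6 hours), 0.60 to 3.20 (day 1) and -0.89 to 0.53 (day 3). In the second experiment it ran from -0.42 to 1.20 for anti-PD-1 against IgG in WT, 0.14 to 1.35 for IgG against untreated in WT, -0.33 to 0.90 and -1.73 to -0.52 for iNOS KO against WT with IgG and with anti-PD-1, -2.44 to -0.58 for the difference between genotypes in anti-PD-1 against IgG, 0.32 to 1.48 for anti-PD-1 against untreated in WT, and -3.66 to -2.41 for the difference between genotypes in that contrast. The number of members called ran from 0 to 1 for anti-PD-1 against IgG and against untreated in WT, 0 to 6 for anti-PD-1 against untreated in iNOS KO, 2 to 6 for iNOS KO against WT untreated, and 3 to 7 for any difference among the 6 conditions. The shares of all genes called in the same fits are not given here, so a rise in members cannot be told from a rise over all genes.

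Without the 3 libraries of highest receptor counts, the WT anti-PD-1 group holds 1 tumor, replicate 2, on which each of the next medians rests. In this alternative, chosen after seeing the data, the median of the members was 1.16 for anti-PD-1 against IgG in WT, -2.21 for iNOS KO against WT after anti-PD-1, -2.31 for the difference between genotypes in anti-PD-1 against IgG, 2.02 for anti-PD-1 against untreated in WT and -4.30 for the difference between genotypes in that contrast. Called was then 1 member for anti-PD-1 against untreated in iNOS KO. For the difference between genotypes in that contrast the receptor covariate gave 0 and the fit of only the groups compared 3. The latter fit gave 5 for iNOS KO against WT untreated, and the shares of all genes called in these fits are not given here. DESeq2 called 1 member for any difference among the 10 conditions, 6 for iNOS KO against WT untreated, 2 after anti-PD-1, 6 for any difference among the 6 conditions, and 3 in WT and 6 in iNOS KO for anti-PD-1 against untreated, where DESeq2's size factors in edgeR gave 1. Without the filter on low counts edgeR called, each count beside the share of all genes called in either direction, 4 members for anti-PD-1 against untreated at 6 hours (0.152%), 5 for IgG against untreated at day 1 (0.418%), 8 for any difference among the 10 conditions (2.85%), 1 and 2 for anti-PD-1 against IgG in WT and iNOS KO (1.92% and 0.152%), 3 and 6 for IgG against untreated in WT and iNOS KO (1.3% and 2.66%), 6 for iNOS KO against WT both untreated (2.63%) and after anti-PD-1 (5.52%), 2 for its mean over treatments (2.27%), 2 for the difference in anti-PD-1 against IgG (0.527%), 8 for any difference among the 6 conditions (14.4%), and 3 and 8 for anti-PD-1 against untreated in WT and iNOS KO (4.56% and 2.84%). The cause of these changes was not tested. edgeR's common coefficient of variation was 0.671 in the time course and 0.786 in the second experiment. Depth limited Gbp8 most, which had as few as 7 counts in 1 tumor of the second experiment.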
